A study of Mus musculus with 18 samples.

Results

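The Krüppel-like factors (KLFs) of J774.1 cells were followed across loss and inhibition of the C-terminal binding proteins (CTBPs), NADH-dependent corepressors. The members were named by gene symbol as Klf2, Klf3, Klf4, Klf6, Klf7, Klf9, Klf10, Klf11, Klf12 and Klf13, 10 in all. Of these, 9 had a row among the 18204 genes of the table and all 9 passed the expression limit, a mean normalized count above 0.222, as did 16383 genes in total. Klf12 was not analysed here. RNA was sequenced from 18 samples of this mouse macrophage-like cell line, 3 replicates in each of 6 groups. Wildtype cells and Ctbp1/2 dKO cells, in which CRISPR/Cas9 editing disrupted both genes, were treated for 4 h with PBS/DMSO vehicle, with MTOB at 1.5 mM or with 4-Cl-HIPP at 250 µM. Both inhibitors bind in the substrate site of CTBPs, MTOB as a keto acid and 4-Cl-HIPP as an oxime acid. The dKO cells were grown out from single cells and the number of clones is not given in the sources used here, so genotype and clone cannot be told apart. Each genotype had 1 vehicle group, which served as the control for both inhibitors.

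KLFs are transcription factors that bind CACCC and other GC-rich elements through C-terminal zinc fingers, while their N-terminal parts differ and recruit different cofactors. KLF3, KLF8 and KLF12 recruit CTBPs through a short PXDLS-type motif and repress transcription, whereas KLF9, KLF10, KLF11, KLF13 and KLF16 bind the corepressor SIN3A. In macrophages, KLF2 and KLF4 are known to restrain inflammatory activation and KLF6 to favour it, and KLF10 and KLF11 were first described as genes induced by TGF-β.

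Both targeted genes had less RNA in the samples labelled dKO. Ctbp1 RNA was 170 to 238 TPM (a transcript level corrected for transcript length and scaled to the same total in each sample) in the 9 wildtype samples and 19.7 to 31.5 TPM in the 9 dKO samples. Ctbp2 RNA was 87.8 to 96.9 TPM in wildtype and 68.5 to 81.9 TPM in dKO samples. The ranges of both genes did not overlap, and the RNA level of an edited gene does not show how much protein was made. The paper reports loss of both proteins by western blot. All 8 macrophage markers were detected in all samples, with a summed level of 2313 to 3426 TPM. Csf1r had the highest mean of them, 853 TPM over the wildtype and 828 TPM over the dKO samples, though Cd14 was above it in all 3 wildtype MTOB samples. Markers of T cells, B cells, neutrophils, fibroblasts and endothelial cells each summed to at most 2.10 TPM per cell type and sample. These sums cover only the listed markers that had a row. They were 2 of 4 for T cells, B cells and neutrophils, 1 of 4 for fibroblasts and 3 of 4 for endothelial cells. With vehicle, Adgre1 had a mean of 29.1 TPM in wildtype and 8.93 TPM in dKO cells, Cd14 had 458 and 143 TPM, and Itgam had 15.8 and 47.9 TPM. With MTOB, Adgre1 had 102 TPM in wildtype and 12.6 TPM in dKO cells, and Cd14 had 833 and 325 TPM. Cd68 (log2 fold change 0.21, adjusted p = 0.00102) and Mpeg1 (-0.37, adjusted p = 0.000204, limma, Benjamini-Hochberg) also passed between the genotypes under vehicle. The dKO cells thus differed from wildtype cells in macrophage markers as well as in the KLFs, and the part of this in the KLF differences was not tested. The mean of Spi1 over all treatments was 247 TPM in wildtype and 246 TPM in dKO samples. In bulk RNA, fewer cells expressing a gene and less RNA per cell cannot be told apart.

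The promoters of Klf6, Klf10 and Klf11 are shown, chosen by their differences in level. Klf6 had the largest genotype difference of the set under vehicle, on the log2(TPM + 1) scale. Klf10 and Klf11 were the members that passed an inhibitor comparison within a genotype. Each sequence is the 250 bases upstream of the annotated start of the canonical transcript in GRCm39, written in the direction of transcription. Capitals mark GGGCGG or its reverse complement CCGCCC, the GC box of the SP/KLF family, with overlapping matches joined.
Klf6: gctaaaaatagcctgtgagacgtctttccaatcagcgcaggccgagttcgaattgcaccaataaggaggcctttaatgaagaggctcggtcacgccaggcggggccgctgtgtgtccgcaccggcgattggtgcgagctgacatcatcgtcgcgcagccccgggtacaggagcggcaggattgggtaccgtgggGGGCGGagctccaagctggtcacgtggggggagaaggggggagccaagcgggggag
Klf10: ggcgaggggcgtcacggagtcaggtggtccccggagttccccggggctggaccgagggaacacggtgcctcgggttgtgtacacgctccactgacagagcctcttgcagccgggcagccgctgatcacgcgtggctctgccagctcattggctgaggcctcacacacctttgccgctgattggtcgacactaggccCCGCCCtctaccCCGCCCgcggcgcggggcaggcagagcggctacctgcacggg
Klf11: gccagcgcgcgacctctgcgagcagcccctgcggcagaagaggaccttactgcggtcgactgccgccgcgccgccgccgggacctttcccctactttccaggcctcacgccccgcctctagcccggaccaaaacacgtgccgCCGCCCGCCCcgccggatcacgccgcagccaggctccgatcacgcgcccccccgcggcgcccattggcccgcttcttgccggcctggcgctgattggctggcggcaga
Klf6 (ENSMUSG00000000078) lies on the plus strand at chr13:5911481-5920393, and its sequence is chr13:5911231-5911480. Klf10 (ENSMUSG00000037465) lies on the minus strand at chr15:38291703-38300959, and its sequence is chr15:38300960-38301209. Klf11 (ENSMUSG00000020653) lies on the plus strand at chr12:24701273-24712913, and its sequence is chr12:24701023-24701272. The canonical transcript of each has 4 exons. The GC box occurs 1 time upstream of Klf6 and 2 times upstream of each of Klf10 and Klf11, and none of these windows holds CACCC or its reverse complement GGGTG. Over all 9 KLFs with a row, 8 windows hold the GC box and 4 hold CACCC, against 47.5% and 55.9% of 12911 promoters of the same length. GC content was 46.4% for Klf9, without a GC box, and 63.2% to 82.4% for the others, against a promoter median of 56.4%. The part of GC content in the number of matches was not tested. These matches are a description of the letters and no evidence of binding.

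KLF transcripts fell into a group of higher and a group of lower level. Averaged over all 18 samples, Klf10 had 15.7 TPM, Klf13 12.4 TPM, Klf9 12.0 TPM and Klf2 10.8 TPM. Klf7 had 5.95 TPM, Klf6 4.65 TPM, Klf11 3.21 TPM and Klf4 2.91 TPM. Klf3 was at 0.0895 TPM with a mean normalized count of 0.655. Reads behind these levels differed too, and the mean normalized count was 331 for Klf13 and 33.8 for Klf4, so Klf4 was measured with less precision. In wildtype vehicle samples the order was Klf2, Klf10, Klf13, Klf9, Klf7, Klf4, Klf11, Klf6 and Klf3. Neighbours in this order separated without overlap of their 3 samples only between Klf9 and Klf7, Klf7 and Klf4, and Klf6 and Klf3. In dKO vehicle samples Klf10 led, followed by Klf13, Klf9, Klf2, Klf6, Klf7, Klf4, Klf11 and Klf3, with gaps only between Klf2 and Klf6, Klf7 and Klf4, and Klf11 and Klf3. Klf6 was thus placed after Klf11 in wildtype vehicle and before Klf7 in dKO vehicle samples. In both cases these neighbours overlapped, as the plot of levels by group shows.

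**Figure D1:**
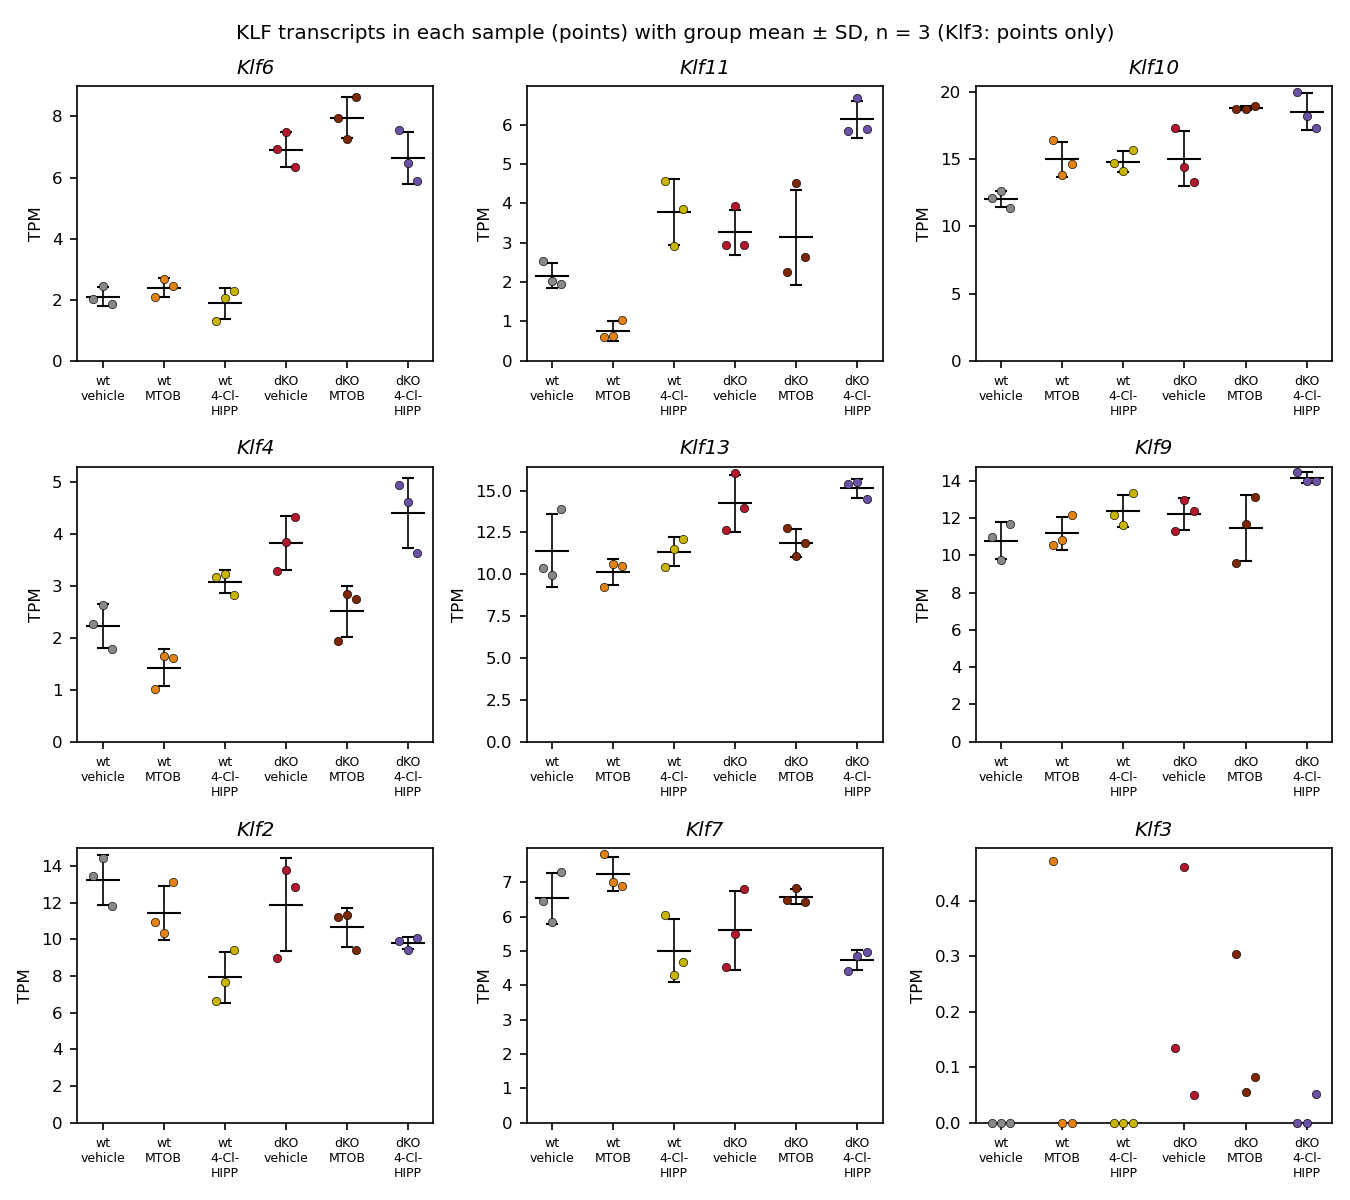
TPM (vertical axes, linear, 1 panel per gene) of the 9 KLF genes in the 6 groups of genotype and treatment. Points are samples and marks with bars are the group mean ± SD (n = 3), except for Klf3, which is shown as points only. Klf6 sits at 1.30 to 2.67 TPM in the 9 wildtype samples and 5.89 to 8.63 TPM in the 9 dKO samples.

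Of the members known to recruit CTBPs, Klf3 was close to absent from these cells. It was listed at 0 TPM in 10 of 18 samples, including all 3 wildtype vehicle and all 3 wildtype 4-Cl-HIPP samples, and reached at most 0.472 TPM, in a wildtype MTOB sample. The dKO vehicle samples had 0.135, 0.460 and 0.0503 TPM. No fold is given, because the control group was listed at 0, and Klf3 did not pass in any comparison. Against dKO vehicle its log2 fold change of TPM + 1 was -0.08 with MTOB (adjusted p = 0.86) and -0.24 with 4-Cl-HIPP (adjusted p = 0.715, limma, Benjamini-Hochberg). Means were 0.215 TPM in dKO vehicle, 0.147 TPM in dKO MTOB and 0.0170 TPM in dKO 4-Cl-HIPP samples. At such levels the added 1 keeps these values small, so they do not show how far Klf3 changed. Klf8, the other CTBP-recruiting KLF in the table and not a member of the set, had 4.93, 1.29 and 1.67 TPM in wildtype vehicle and 3.06, 3.05 and 5.17 TPM in dKO vehicle samples, which overlapped. It had 2.56, 1.74 and 1.67 TPM in wildtype and 3.38, 3.38 and 4.34 TPM in dKO samples under MTOB, and 1.48, 1.05 and 1.54 TPM against 11.8, 2.31 and 2.32 TPM under 4-Cl-HIPP. The genotypes did not overlap under either inhibitor, but the differences of 0.66 (adjusted p = 0.433) and 1.15 (adjusted p = 0.125, limma, Benjamini-Hochberg) did not pass. The 4-Cl-HIPP difference was raised by the dKO sample at 11.8 TPM, far above the 2.31 and 2.32 TPM of the others.

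The comparison of dKO with wildtype cells asks which KLF transcripts differ when CTBPs are missing. Klf6, a widely expressed factor that also acts in macrophage activation, was the member with the largest difference, 3.29-fold higher in mean TPM in dKO than in wildtype cells under vehicle. Klf4 was also higher, and both passed the test. They were 2 of 9 members, where 10.7% of all tested genes passed and 7.01% passed in the higher direction. The groups did not overlap for 5 of 9 members, against 26.1% of all tested genes. These 5 included Klf3, listed at 0 TPM in all 3 wildtype vehicle samples and at 0.0503 to 0.460 TPM in dKO vehicle samples. The median log2 fold change on log2(TPM + 1) was 0.29 for the 9 members and 0.01 for all tested genes.

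Klf6 had 2.01, 2.44 and 1.86 TPM in wildtype vehicle samples and 6.93, 7.48 and 6.34 TPM in dKO vehicle samples. Under MTOB it had 2.08, 2.67 and 2.44 TPM in wildtype and 7.96, 7.27 and 8.63 TPM in dKO samples. Under 4-Cl-HIPP it had 1.30, 2.05 and 2.29 TPM in wildtype and 7.54, 6.49 and 5.89 TPM in dKO samples. The lowest dKO sample was above the highest wildtype sample whatever the treatment. The log2 fold change of TPM + 1, a scale that understates changes of genes with low TPM, was 1.35 (SE 0.14, adjusted p = 4.51e-06, limma with Benjamini-Hochberg adjustment) under vehicle. It was 1.40 under MTOB (adjusted p = 3.07e-06) and 1.42 under 4-Cl-HIPP (adjusted p = 2.64e-06). Genotype accounted for 94.6% of the variance of Klf6 on the log2(TPM + 1) scale, treatment for 1.95% and the spread within groups for 3.41%. The Klf6 call stood in all 18 fits that each left out 1 sample. Its closest homologue in the set, Klf7, had 6.47, 5.83 and 7.31 TPM in wildtype vehicle and 4.52, 5.49 and 6.81 TPM in dKO vehicle samples, which overlapped, and its log2 fold change of -0.20 did not pass (adjusted p = 0.402, limma, Benjamini-Hochberg; 95% interval -0.46 to 0.06). It did not pass under MTOB either, where the groups did not overlap (-0.12, adjusted p = 0.663), nor under 4-Cl-HIPP, where they did (-0.06, adjusted p = 0.874).

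**Figure D2:**
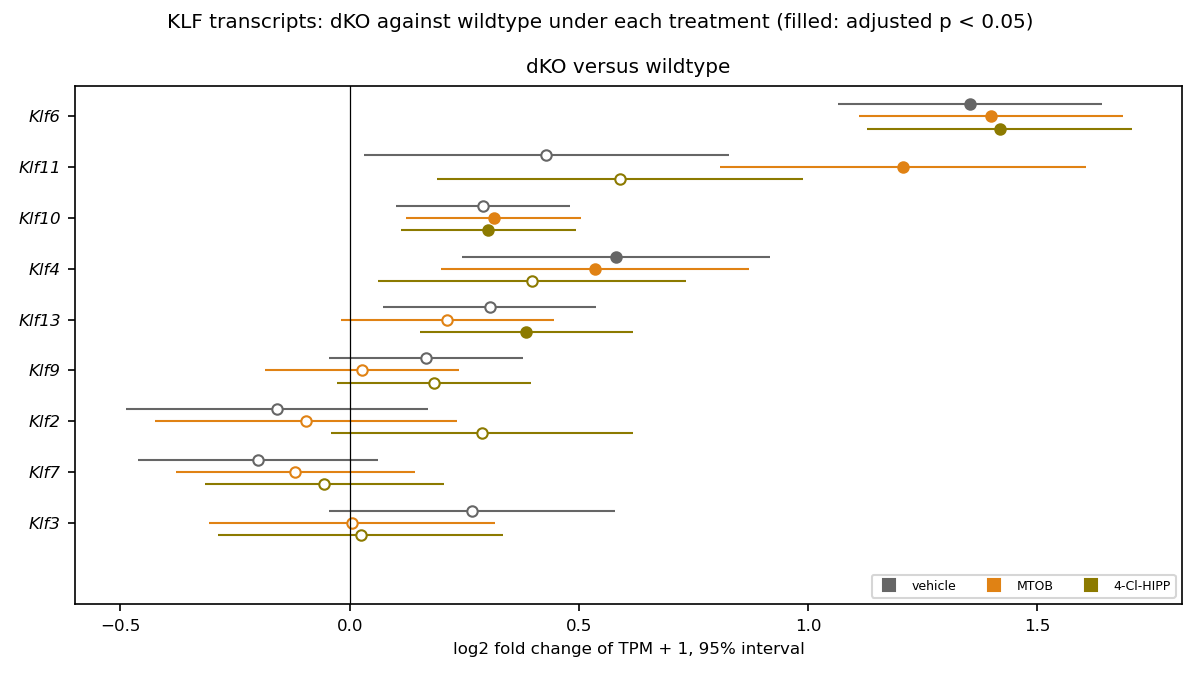
Log2 fold change of TPM + 1 of dKO against wildtype cells (horizontal axis, with 95% interval) for the 9 KLF genes under vehicle, MTOB and 4-Cl-HIPP, n = 3 per group. Filled points have an adjusted p below 0.05. Klf6 lies between 1.35 and 1.42 under all 3 treatments.

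Among the TGF-β-inducible pair, Klf11 passed the genotype test in MTOB-treated cells. It had 0.603, 0.627 and 1.04 TPM in wildtype MTOB samples and 2.25, 4.52 and 2.64 TPM in dKO MTOB samples, a 4.15-fold difference of means. The groups did not overlap, and the log2 fold change of TPM + 1 was 1.21 (SE 0.19, adjusted p = 0.000371, limma, Benjamini-Hochberg). Under vehicle it had 2.53, 2.03 and 1.94 TPM in wildtype and 2.94, 3.93 and 2.94 TPM in dKO samples. These did not overlap either, but the log2 fold change of 0.43 did not pass (adjusted p = 0.193), nor did that of 0.59 under 4-Cl-HIPP (adjusted p = 0.0603). Whether the genotype difference depended on MTOB is the interaction tested with the inhibitors below.

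Klf10, the member with the highest mean over all 18 samples, was higher in dKO cells by a nearly equal amount under each treatment. It had 12.1, 12.6 and 11.4 TPM in wildtype vehicle samples and 17.3, 14.4 and 13.3 TPM in dKO vehicle samples, without overlap. The log2 fold change was 0.29 under vehicle (adjusted p = 0.0502), 0.31 under MTOB (adjusted p = 0.0331) and 0.30 under 4-Cl-HIPP (adjusted p = 0.0425, limma, Benjamini-Hochberg), so that the last pair passed and the first did not. The size was the same within the SE of 0.09, and with 1 sample left out the vehicle call was made in 3 of 18 fits, the MTOB call in 13 and the 4-Cl-HIPP call in 7. With a replicate number left out of all groups they were made in 0, 1 and 0 of 3 fits, with an adjusted p of up to 0.286, 0.327 and 0.318.

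Of Klf9 and Klf13, a closely related pair of SIN3A-binding repressors, Klf13 passed in 1 genotype comparison and Klf9 in none. Klf13 had 10.4, 11.5 and 12.1 TPM in wildtype and 15.4, 15.5 and 14.5 TPM in dKO samples under 4-Cl-HIPP. It passed there without overlap of the groups (log2 fold change 0.39, SE 0.11, adjusted p = 0.0332, limma, Benjamini-Hochberg), a call made in 13 of 18 fits that left out 1 sample and in 0 of 3 that left out a replicate number of all groups (adjusted p = 0.0683 to 0.257). Its log2 fold changes of 0.31 under vehicle (adjusted p = 0.0966) and 0.21 under MTOB (adjusted p = 0.275) did not pass. Klf9 had 9.73 to 11.7 TPM in wildtype vehicle and 11.3 to 13.0 TPM in dKO vehicle samples, which overlapped, and its log2 fold change of 0.17 did not pass (adjusted p = 0.387; 95% interval -0.05 to 0.38). It was 0.03 under MTOB (adjusted p = 0.93) and 0.18 under 4-Cl-HIPP (adjusted p = 0.324), where its samples did not overlap between genotypes.

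Klf4 and Klf2, the pair that restrains inflammatory activation, gave a passed and a not passed genotype comparison. Klf4 had 2.26, 2.63 and 1.79 TPM in wildtype vehicle and 3.29, 3.84 and 4.32 TPM in dKO vehicle samples. These did not overlap, with a 1.72-fold difference of means, and the test passed at 0.58 on the log2 scale (SE 0.16, adjusted p = 0.0255, limma, Benjamini-Hochberg). It also passed under MTOB (0.54, adjusted p = 0.0393) and was 0.40 under 4-Cl-HIPP without passing (adjusted p = 0.145). The vehicle call was made in 14 of 18 fits that left out 1 sample. It was lost without wildtype vehicle replicate 1 or 3 or dKO vehicle replicate 2 or 3, with an adjusted p of up to 0.117. The MTOB call was made in 11 of 18 such fits, with an adjusted p of up to 0.171. In fits without 1 replicate number of all groups neither was made, with an adjusted p of 0.0606 to 0.345 under vehicle and 0.124 to 0.240 under MTOB. Among 11 other settings of pseudocount, filter, scaling and design, 9 kept the vehicle call and 7 the MTOB call. The adjusted p there was up to 0.0851 and 0.179. A block for replicate number within genotype was among those that lost the vehicle call. Klf2 had 13.4, 14.5 and 11.8 TPM in wildtype vehicle and 8.99, 13.8 and 12.9 TPM in dKO vehicle samples, which overlapped (log2 fold change -0.16, 95% interval -0.49 to 0.17, adjusted p = 0.654). Under MTOB Klf2 was -0.09 (adjusted p = 0.802), with overlap, and under 4-Cl-HIPP 0.29 (adjusted p = 0.318), without overlap.

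Across treatments, 4 of 9 members were higher in dKO cells under MTOB (Klf4, Klf6, Klf10 and Klf11), against 6.98% of all tested genes, and 3 under 4-Cl-HIPP (Klf6, Klf10 and Klf13), against 6.6%. Of all tested genes, 11.2% and 10.2% passed in these comparisons in either direction. The groups did not overlap for 6 members under MTOB and 7 under 4-Cl-HIPP, against 23.5% and 25.2% of all tested genes. No member was lower past the test in any of the 3 comparisons. When the genotype difference was averaged over the 3 treatments, a contrast added after the data were seen, Klf4, Klf6, Klf10, Klf11 and Klf13 passed, 5 of 9 members against 22.4% of all tested genes. Their log2 fold changes were 0.51 for Klf4 (adjusted p = 0.000615), 1.39 for Klf6 (adjusted p = 1.83e-09), 0.30 for Klf10 (adjusted p = 0.000384), 0.74 for Klf11 (adjusted p = 8.49e-05) and 0.30 for Klf13 (adjusted p = 0.00212, limma, Benjamini-Hochberg). These comparisons use different samples for each treatment.

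The inhibitor comparisons ask which KLF transcripts move within 4 h of CTBP inhibition, and whether they also do so in cells without CTBPs. MTOB at 1.5 mM and 4-Cl-HIPP at 250 µM differ in dose and share the vehicle samples of each genotype. According to the methods they also differ in solvent, PBS for MTOB and DMSO for 4-Cl-HIPP. Values of the inhibitors are therefore given side by side and were not tested against each other. The part of the solvents in these values was not tested. With MTOB, 1 of 9 members passed in wildtype cells (Klf11, lower), where 7.26% of all tested genes passed and 3.46% passed in the lower direction. In dKO cells 1 passed (Klf10, higher), where 6.58% passed and 3.04% passed in the higher direction. With 4-Cl-HIPP no member passed in limma, where 0.366% of all tested genes did in wildtype and 0.501% in dKO cells. Macrophage markers moved in the same comparisons, and their part in the KLF values was not tested. Adgre1 (1.79, adjusted p = 1.01e-05), Cd14 (0.86, adjusted p = 1.18e-06), Lyz2 (0.37, adjusted p = 4.78e-06) and Cd68 (0.15, adjusted p = 0.0221) rose with MTOB in wildtype cells. In dKO cells Cd14 (1.18, adjusted p = 3.96e-08), Lyz2 (0.24, adjusted p = 0.000541) and Spi1 (0.34, adjusted p = 0.00593) rose with MTOB, and Cd14 fell with 4-Cl-HIPP (-0.46, adjusted p = 0.00652, limma, Benjamini-Hochberg). For 4-Cl-HIPP, at an unadjusted p below 0.05 there were 5 members in wildtype and 2 in dKO cells, against 8.19% and 8.47% of all tested genes. The groups did not overlap for 3 members with MTOB in wildtype cells, against 22.6% of all tested genes, and for 2 in dKO cells, against 21%. With 4-Cl-HIPP this held for 4 members in wildtype cells, against 12.6%, and for 3 in dKO cells, against 13.7%.

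**Figure D3:**
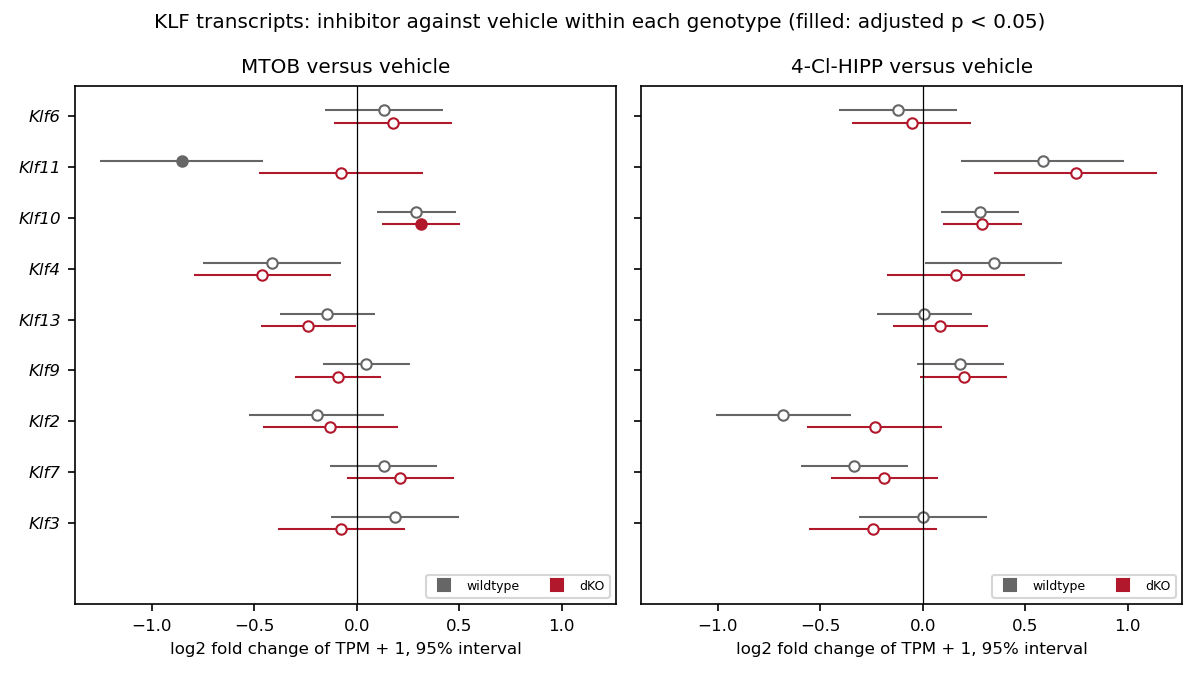
Log2 fold change of TPM + 1 of each inhibitor against vehicle (horizontal axes, with 95% interval) for the 9 KLF genes in wildtype (grey) and dKO cells (red), n = 3 per group. Filled points have an adjusted p below 0.05. Klf11 is at -0.85 with MTOB in wildtype cells and at -0.08 in dKO cells, and lies above 0 with 4-Cl-HIPP in both.

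Klf11 had the widest range of inhibitor values. In wildtype cells it had 2.53, 2.03 and 1.94 TPM with vehicle, 0.603, 0.627 and 1.04 TPM with MTOB and 4.57, 2.91 and 3.87 TPM with 4-Cl-HIPP. None of these 3 groups overlapped, with MTOB lowest and 4-Cl-HIPP highest. The log2 fold change with MTOB was -0.85 (SE 0.19, adjusted p = 0.0102, limma, Benjamini-Hochberg), and it passed in all 18 fits that left out 1 sample. It did not pass without replicate 1 or replicate 3 of all groups (adjusted p = 0.151 and 0.107) or with a pseudocount of 5 (adjusted p = 0.0659). With 4-Cl-HIPP it was 0.59, which did not pass (unadjusted p = 0.00695, adjusted p = 0.328). In dKO cells Klf11 had 2.94, 3.93 and 2.94 TPM with vehicle, 2.25, 4.52 and 2.64 TPM with MTOB and 5.83, 6.68 and 5.89 TPM with 4-Cl-HIPP. The MTOB samples overlapped with vehicle (log2 fold change -0.08, adjusted p = 0.896), while the 4-Cl-HIPP samples lay above vehicle (0.75, unadjusted p = 0.0012, adjusted p = 0.116). The MTOB effect in wildtype minus that in dKO cells was -0.78 (SE 0.26, 95% interval -1.34 to -0.21), with an unadjusted p of 0.0103 and an adjusted p of 0.556, so the difference of the MTOB effect between genotypes did not pass after adjustment over all genes.

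Klf10 had similar values with both inhibitors in both genotypes. In wildtype cells it had 16.4, 13.9 and 14.6 TPM with MTOB and 14.8, 14.1 and 15.7 TPM with 4-Cl-HIPP, all above the 12.6 TPM of the highest vehicle sample. In dKO cells it had 18.7, 18.8 and 19.0 TPM with MTOB and 20.0, 18.3 and 17.3 TPM with 4-Cl-HIPP, the lowest of these only just above the highest vehicle sample. The log2 fold change with MTOB was 0.29 in wildtype (adjusted p = 0.0641) and 0.31 in dKO cells (adjusted p = 0.0483, limma, Benjamini-Hochberg). The dKO call was made in only 4 of 18 fits that left out 1 sample, with an adjusted p of up to 0.196. It was made in 1 of 3 that left out a replicate number of all groups (adjusted p of up to 0.370). Among 11 other settings of pseudocount, filter, scaling and design it was made in 5, with an adjusted p of up to 0.214. With 4-Cl-HIPP the log2 fold change was 0.28 in wildtype (adjusted p = 0.328) and 0.29 in dKO cells (adjusted p = 0.258). The differences between genotypes, -0.02 for MTOB (95% interval -0.29 to 0.25) and -0.01 for 4-Cl-HIPP (95% interval -0.28 to 0.26), did not pass.

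Klf4 was placed by treatment like Klf11 in wildtype cells and differently in dKO cells. In wildtype cells it had 1.02, 1.65 and 1.61 TPM with MTOB and 3.18, 3.23 and 2.83 TPM with 4-Cl-HIPP, below and above the vehicle range of 1.79 to 2.63 TPM. In dKO cells it had 1.95, 2.84 and 2.76 TPM with MTOB, below the vehicle range of 3.29 to 4.32 TPM, and 4.95, 4.62 and 3.64 TPM with 4-Cl-HIPP, which overlapped with it. The log2 fold change with MTOB was -0.41 in wildtype (adjusted p = 0.151) and -0.46 in dKO cells (adjusted p = 0.106), and with 4-Cl-HIPP 0.35 (adjusted p = 0.591) and 0.16 (adjusted p = 0.877, limma, Benjamini-Hochberg). None of these passed.

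Klf2 was the member with the smallest p for 4-Cl-HIPP in wildtype cells. It had 6.65, 7.68 and 9.42 TPM with 4-Cl-HIPP against 13.4, 14.5 and 11.8 TPM with vehicle, without overlap. The mean ratio was 0.598 and the log2 fold change -0.68 (SE 0.15, unadjusted p = 0.000514), with an adjusted p of 0.0926 that did not pass (limma, Benjamini-Hochberg). In dKO cells it had 9.90, 9.44 and 10.1 TPM against 8.99, 13.8 and 12.9 TPM, which overlapped (-0.23, adjusted p = 0.751), and the difference between the genotypes of -0.45 had an unadjusted p of 0.0581. With MTOB it was -0.19 in wildtype and -0.13 in dKO cells, with adjusted p of 0.586 and 0.741.

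The remaining members did not pass in any inhibitor comparison. Klf7 had 6.04, 4.29 and 4.68 TPM with 4-Cl-HIPP in wildtype cells, overlapping with vehicle (log2 fold change -0.33, unadjusted p = 0.0158, adjusted p = 0.445). In dKO cells Klf7 was -0.19 with 4-Cl-HIPP (adjusted p = 0.744), and with MTOB it was 0.13 in wildtype (adjusted p = 0.66) and 0.21 in dKO cells (adjusted p = 0.389). Klf6 ranged between -0.12 and 0.18 over the 4 inhibitor comparisons, Klf9 between -0.09 and 0.20 and Klf13 between -0.24 and 0.09. No member passed the test of a different inhibitor effect between genotypes, where 0.0916% of all tested genes did for MTOB and 0% for 4-Cl-HIPP (at an unadjusted p below 0.05, 1 member for MTOB and 0 for 4-Cl-HIPP, against 6.89% and 4.48% of all tested genes). Averaging each inhibitor over the genotypes, added after the data were seen, brought Klf10 (0.30, adjusted p = 0.00404), Klf4 (-0.44, adjusted p = 0.0153) and Klf11 (-0.47, adjusted p = 0.0286) past the test for MTOB, 3 of 9 against 13.2% of all tested genes. For 4-Cl-HIPP it brought Klf11 (0.67, adjusted p = 0.0168) and Klf10 (0.29, adjusted p = 0.0326) past it, 2 of 9 against 1.5%. The MTOB average for Klf11 joins -0.85 in wildtype with -0.08 in dKO cells and so describes neither.

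The members differed in how their variance divided. On the log2(TPM + 1) scale treatment took 60.5% for Klf7, 52.0% for Klf2, 51.6% for Klf11 and 48.4% for Klf4, while genotype took 46.1% for Klf10 and 47.9% for Klf13. Within-group spread took 40.3% for Klf9 and 65.5% for Klf3, the highest shares. Klf4 and Klf11 varied most alike, with a Pearson r of 0.88 over the 18 samples that share the 6 groups, and 0.36 once group means were removed. The plot of Klf4 against Klf11 shows that the likeness lay mostly in the group levels. Klf6 and Klf10 had 0.69 over the samples and 0.21 within groups, and Klf4 and Klf7 had -0.71 and -0.07.

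**Figure D4:**
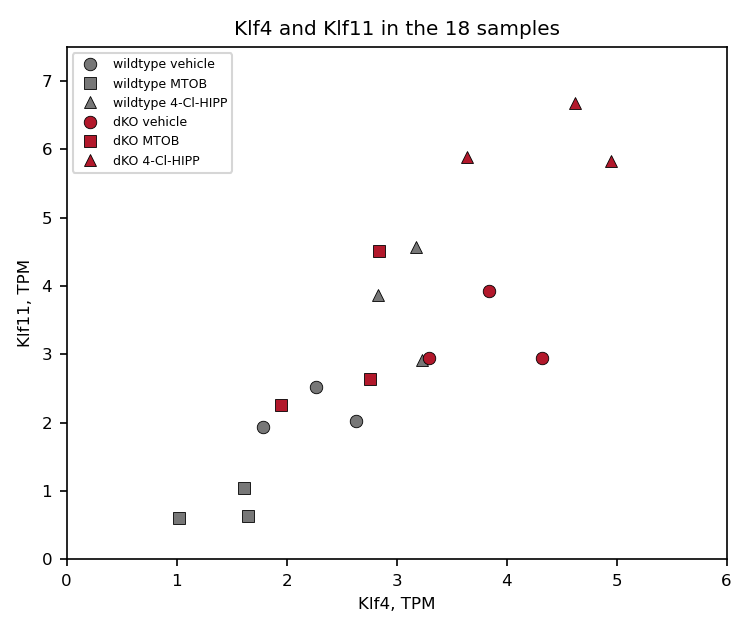
TPM of Klf4 (horizontal axis) and Klf11 (vertical axis) in the 18 samples, with wildtype in grey, dKO in red and a symbol for each treatment. Wildtype MTOB samples lie lowest on both axes, with Klf11 at 0.603 to 1.04 TPM, and dKO 4-Cl-HIPP samples highest for Klf11, at 5.83 to 6.68 TPM.

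Genes around the members were read from lists of the family, its cofactors and its targets. Of 16 other KLF and SP genes, 11 were in the table and tested. Sp8 aside, none passed in comparisons within a treatment or genotype. Sp6, Sp7, Sp9 and Klf1 reached at most 0.193, 0.305, 0.455 and 1.13 TPM, so that their not passing says little. Of all tested genes, 10.7% passed for dKO against wildtype under vehicle and 11.2% under MTOB. Sp8 was listed at 0 TPM in all but 2 wildtype samples, at 0.0600 and 0.0620 TPM, and had 0.334 to 1.28 TPM in dKO samples. No fold, test or count is given for Sp8, since wildtype samples were at or near 0. It exceeded the expression limit only through the dKO samples. The median log2 fold change of the 11 genes, with Sp8 and the genes of low level included, was 0.01 under vehicle. That of all tested genes was 0.01 too, and none of the 11 passed with an inhibitor. In the averages added after the data were seen, Sp8 again aside, only Klf8 was higher in dKO cells (0.77, adjusted p = 0.0385, limma, Benjamini-Hochberg). Of all tested genes, 22.4% passed there. The Klf8 average includes the dKO 4-Cl-HIPP sample at 11.8 TPM. With MTOB 2 of 11 were lower, Sp1 (-0.38, adjusted p = 0.0199) and Sp2 (-0.25, adjusted p = 0.0392), where 13.2% passed. Of 14 KLF cofactors, 3 passed under vehicle, with the targeted genes among them, where 10.7% of all tested genes did. Hdac2, a class I histone deacetylase, was higher in dKO cells under vehicle (0.21, adjusted p = 0.0395), MTOB (0.24, adjusted p = 0.0183) and 4-Cl-HIPP (0.21, adjusted p = 0.0425). Its partner Hdac1 was lower under MTOB (-0.17, adjusted p = 0.0213), and the targeted Ctbp1 and Ctbp2 were the other cofactors that passed. The cofactor Sin3a and the ubiquitin ligases of KLF proteins did not pass in these comparisons, and no cofactor passed with an inhibitor within a genotype. In the averages added after the data were seen, 1 of 14 cofactors was higher with MTOB (Hdac1, 0.10, adjusted p = 0.0453), where 13.2% of all tested genes passed. By genotype 1 was higher and 4 were lower in dKO cells, where 22.4% passed. These were Hdac2, the targeted Ctbp1 and Ctbp2, Hdac1 (-0.11, adjusted p = 0.00424) and the ubiquitin ligase gene Wwp1 (-0.19, adjusted p = 0.0341, limma, Benjamini-Hochberg). The median log2 fold change of the 14 cofactors under vehicle was -0.03.

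Genes known as targets of single KLFs included several that differed between genotypes. Of 23 listed, 17 were in the table and 15 were tested, and under vehicle 8 were higher and 1 lower in dKO cells, where 7.01% and 3.72% of all tested genes were. Their median log2 fold change was 0.24, against 0.01 for all tested genes. S1pr1 and Itgb7 encode a lipid receptor and an integrin chain that guide leukocyte traffic and are linked to KLF2. S1pr1 had 2.35, 1.97 and 1.99 TPM in wildtype and 11.1, 8.48 and 10.3 TPM in dKO vehicle samples (log2 fold change 1.82, adjusted p = 3.28e-07). Itgb7 had 2.51, 1.36 and 0.782 TPM in wildtype and 10.6, 15.0 and 12.4 TPM in dKO vehicle samples (2.46, adjusted p = 1.82e-05). Klf2 itself overlapped between these same groups. Lgals3, which encodes galectin-3, was higher at 315 to 322 TPM against 194 to 207 TPM (0.66, adjusted p = 1.27e-07). Tgfbr1, the type I TGF-β receptor, had a log2 fold change of 0.60 (adjusted p = 2.04e-05), the cell cycle inhibitor gene Cdkn1a of 0.46 (adjusted p = 0.00139) and the chemokine gene Ccl5 of 1.61 (adjusted p = 0.00182, limma, Benjamini-Hochberg). Under MTOB 6 were higher and 1 lower in dKO cells and under 4-Cl-HIPP 8 and 1, with medians of 0.29 and 0.30. The 6 with the smallest p under MTOB were Lgals3 (0.77, adjusted p = 2.24e-08), S1pr1 (1.65, adjusted p = 8.76e-07), Itgb7 (3.02, adjusted p = 2.08e-06), Tgfbr1 (0.60, adjusted p = 1.93e-05), Plau (0.67, adjusted p = 8.76e-05) and the type II receptor gene Tgfbr2 (-0.36, adjusted p = 0.00374). Under 4-Cl-HIPP they were Lgals3 (0.65, adjusted p = 1.49e-07), S1pr1 (1.79, adjusted p = 3.5e-07), Tgfbr1 (0.67, adjusted p = 6.29e-06), Itgb7 (2.70, adjusted p = 6.93e-06), Txnip (0.32, adjusted p = 0.00036) and Tgfb1 (0.28, adjusted p = 0.000983, limma, Benjamini-Hochberg). Of all tested genes, 6.98% were higher and 4.18% lower in dKO cells under MTOB, and 6.6% and 3.63% under 4-Cl-HIPP.

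The inhibitors moved some of these targets in both genotypes. With MTOB 4 were higher and 4 lower in wildtype cells and 3 higher and 3 lower in dKO cells, with medians of -0.04 and 0.01. Of all tested genes, 3.8% were higher and 3.46% lower in wildtype cells with MTOB, and 3.04% and 3.54% in dKO cells. Cdkn1a rose from 61.1, 57.7 and 55.8 TPM to 89.7, 91.6 and 101 TPM in wildtype cells, by 0.68 on the log2 scale (adjusted p = 6.52e-05), and by 0.60 in dKO cells (adjusted p = 0.000287). In wildtype cells Tgfb1 rose by 0.46 (adjusted p = 1.51e-05) and Ccl5 by 1.49 (adjusted p = 0.00563), while Plau, the urokinase gene, had -0.59 (adjusted p = 0.000516) and Txnip -0.22 (adjusted p = 0.0109, limma, Benjamini-Hochberg). In dKO cells the others of the 6 with the smallest p were Txnip (-0.44, adjusted p = 3.75e-05), Tgfb1 (0.25, adjusted p = 0.00413), S1pr1 (-0.67, adjusted p = 0.00921), Tgfbr1 (-0.29, adjusted p = 0.0181) and Zc3h12a (0.81, adjusted p = 0.0235). With 4-Cl-HIPP 2 were higher and none lower in each genotype, with medians of 0.05 and 0.14, where 0.324% of all tested genes were higher and 0.0427% lower in wildtype, and 0.403% and 0.0977% in dKO cells. Tgfbr1 rose from 23.9, 24.3 and 24.0 TPM to 43.3, 48.8 and 42.6 TPM in wildtype cells (0.87, adjusted p = 2.21e-05) and had 0.94 in dKO cells (adjusted p = 1.47e-05). Plau rose by 0.58 in wildtype (adjusted p = 0.00763) and by 0.46 in dKO cells (adjusted p = 0.0294, limma, Benjamini-Hochberg). With MTOB, Tgfbr1 had -0.30 in wildtype cells (adjusted p = 0.0157, limma, Benjamini-Hochberg). Tgfbr1 and Plau were thus each lower with MTOB and higher with 4-Cl-HIPP in wildtype cells. The doses and solvents differ, and the vehicle samples are the same. Plau with MTOB was 0.01 in dKO cells (adjusted p = 0.999).

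**Figure D5:**
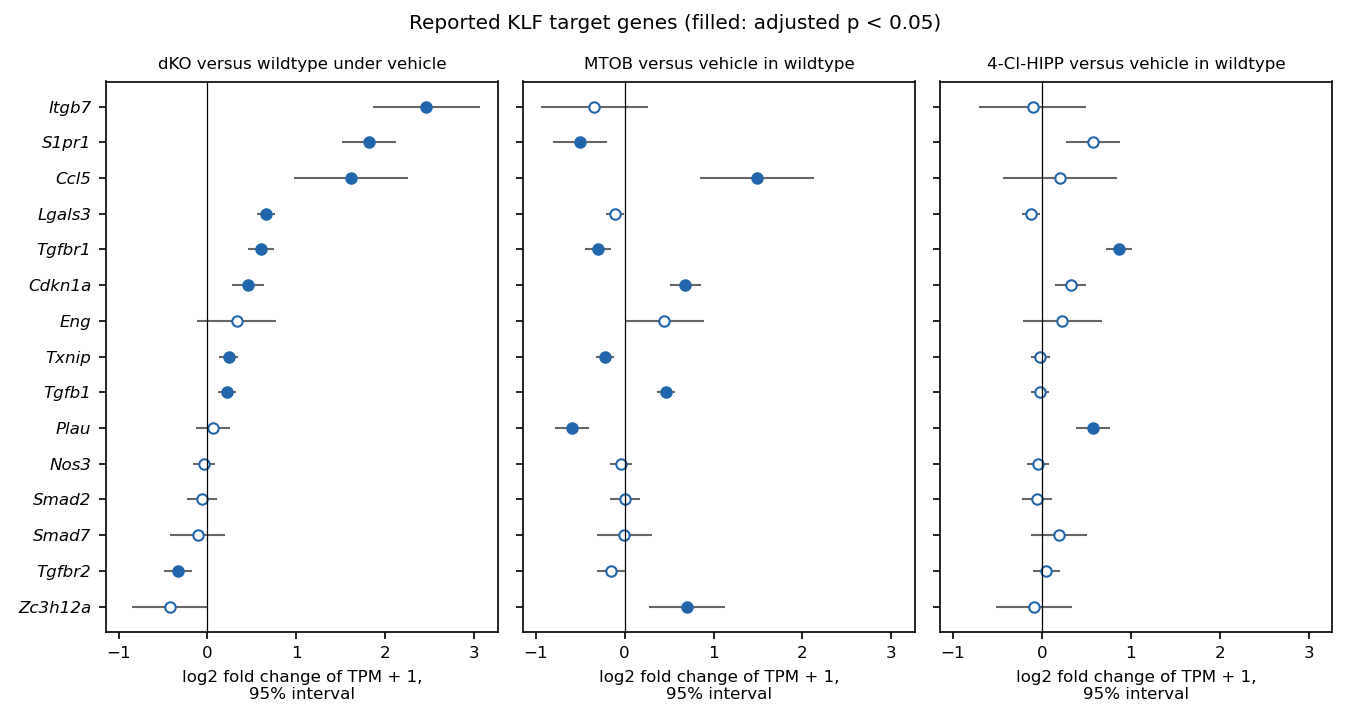
Log2 fold change of TPM + 1 with 95% interval (horizontal axes) of the 15 tested KLF target genes for dKO against wildtype under vehicle, and for MTOB and 4-Cl-HIPP against vehicle in wildtype cells, n = 3 per group. Filled points have an adjusted p below 0.05. Itgb7 (2.46) and S1pr1 (1.82) lead the genotype comparison, Ccl5 (1.49) leads with MTOB and Tgfbr1 (0.87) with 4-Cl-HIPP.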

How the data were processed

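Groups were taken from the genotype and treatment of each label. According to the methods, the authors quantified reads with Salmon on Gencode M28 and summarised them per gene with tximport, and the submitters' notes name Salmon 1.9.0 and DESeq2 1.44.0. The deposited table gives TPM per gene and sample, called scaled TPM in its header and computed by the authors from these estimates, with sums of 999766 to 999897 per sample. It also gives a signal, the normalized count of a gene averaged by the authors over all samples with DESeq2. The log2 fold change and adjusted p-value columns that the authors deposited for each inhibitor comparison were not used. TPM keep no sequencing depth, so the depth of each sample is unknown. Labels say polyA RNA, but rRNA depletion and an unstranded mRNA kit are given in the methods, and reads of antisense genes cannot be told apart.

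Log2(TPM + 1) was fitted for the 16383 genes whose averaged normalized count exceeded the 10th percentile, with 6 group means over all 18 samples (limma 3.58.1, R 4.3.3), with a variance trend on the mean normalized count. Within a contrast, p-values of all genes were adjusted by Benjamini-Hochberg, and an adjusted p below 0.05 counted as passed. P-values measure the spread between replicates, called biological triplicates in the methods. Replicates correlated across genes with r of 0.983 to 0.987. The fit was tested on simulated data.

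The members, lists (other KLF and SP genes, cofactors, targets, cell type markers) and comparisons were chosen with earlier results of these data known. All members were named in each comparison within a genotype or treatment, as were genes of the first 3 lists that passed there (the 6 with the smallest p where more than 6 passed) and, for each member, the 2 genes most similar over samples when the averaged normalized count was 50 or more. Alternatives were other pseudocounts, filters, scalings, designs and sample sets. Averages over genotypes or treatments and a filter at a count of 10 were added after the data were seen. Promoters were read from GRCm39 with the Gencode M39 annotation. A listed target gene is not reported here. A search of KLF proteins for CTBP docking motifs was planned and not run. Figures were drawn with matplotlib.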

Additional observations from a re-analysis of the deposited data

How the results depend on the processing

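Alternatives were run for the 28 differences of single members with an unadjusted p below 0.05. None of these changed sign, and of 951 values 837 kept their side of the threshold. Differences with a larger unadjusted p were not followed. The Klf6 genotype calls and the Klf11 genotype call under MTOB passed in every setting run. The numbers of members that passed moved in these settings. For MTOB in wildtype cells (1 member), a pseudocount of 5 gave 0 (Klf11 adjusted p = 0.0659), median-of-ratios scaling 2 and averaging over genotypes 3. For MTOB in dKO cells (1), pseudocounts of 0.1 and 0.5, no filter, no variance trend, a fit of only the compared groups and the replicate block gave 0, and averaging 3. For 4-Cl-HIPP, averaging gave 2 instead of 0. For dKO against wildtype, a fit of only the compared groups gave 1 (2 in the reported fit) under vehicle and 2 (4) under MTOB, quantile normalization 2 under MTOB and 1 (3) under 4-Cl-HIPP, and averaging over treatments 5. Counts also rose by 1 elsewhere, to 3 under vehicle with genes of a mean TPM of at least 1, a count filter of 10 or a replicate block across all groups, and to 4 under 4-Cl-HIPP with a pseudocount of 5, the same filters or the replicate block within genotype. The causes were not tested.

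Leaving out single samples, or a replicate number in all groups, gave 0 to 2 members for MTOB in wildtype and 0 to 1 in dKO cells, 0 to 1 for 4-Cl-HIPP in each genotype, 1 to 3, 2 to 4 and 1 to 4 for dKO against wildtype under vehicle, MTOB and 4-Cl-HIPP, and 0 for both interactions. Labels give the groups the same replicate numbers. Same-numbered samples of a genotype did not deviate together (correlations of -0.0889 to 0.0694, and 6 of 18 replicate and group pairs correlated best at the same number), so the numbers were not taken as pairs. With the replicate block within genotype 0 members passed for MTOB in dKO cells and 1 for dKO against wildtype under vehicle. Depth is unknown, and Klf3, Klf4 and Klf11 rested on the lowest mean normalized counts.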

Other observations

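The genes whose log2(TPM + 1) correlated most with each member over the 18 samples were sought among 9286 genes (9287 for Klf4), and the samples share the 6 groups. For Klf6 they were S100a10 and Myof (Pearson r 0.98 each), for Klf4 Ndrg2 (0.96) and Slc44a2 (0.94), and for Klf11 Neat1 (0.94) and Ndrg2 (0.93). For Klf10 they were Il6ra and Ank (0.89 each), for Klf13 Shb (0.88) and Gins3 (0.87), and for Klf9 Chd9 (0.87) and Specc1 (0.86). For Klf7 they were Ciao2b (0.84) and Sltm (0.83), and for Klf2 Htra2 (0.79) and Gm50387 (0.77). Klf3, at 0 TPM in most samples, is left out. Ndrg2 is thus among the closest genes of both Klf4 and Klf11, which themselves had a Pearson r of 0.88.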
